A study of Arabidopsis thaliana with 21 samples.

Results

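The genes for the small subunit of Rubisco and for Rubisco activase were followed in Arabidopsis thaliana rosettes that passed from night into standard or high light. The 5 members were chosen by locus: RBCS1A (AT1G67090), RBCS1B (AT5G38430), RBCS2B (AT5G38420) and RBCS3B (AT5G38410), which are the 4 copies of the small subunit gene, and RCA (AT2G39730), the activase gene. They are 5 of the 33341 loci counted, and all 5 passed the filter on low counts that left 19626 loci for testing. They were picked by locus identity, with earlier results of these data known.

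Rubisco fixes carbon dioxide in the chloroplast and is assembled from a large subunit, made from the chloroplast gene rbcL, and a small subunit, made in the cytosol from the nuclear RBCS genes and imported. Rubisco activase is an ATPase that frees the active sites of Rubisco from sugar phosphates that block them. Both transcripts are known in leaves for their abundance and for their regulation by light and the circadian clock.

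Plants of the wild-type accession Col-0 carried no transgene or mutation named in the labels and were 21 days old, grown at 22 °C with days of 16 h and nights of 8 h. Whole rosettes were taken at the end of the night (T0D, 0 h of light), after 2, 5 and 8 h at 100 µE, the standard intensity (T2L, T5L and T8L), and after 2, 5 and 8 h at 500 µE, the high intensity (T2H, T5H and T8H). Each of the 7 groups had 3 libraries, described as biological triplicates, which makes 21 in all. The sources do not say how many plants made up a sample, and the p-values therefore reflect only the variation among these samples. A rosette mixes cell types, and in such bulk samples fewer cells of a type cannot be told apart from less RNA per cell.

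Total counts per library ran from 6545003 to 31449700, and the lowest count of a member in any library was 6954, for RBCS1B, so counting error was small beside the spread between libraries. Of 5 leaf markers, all were above 1 CPM (counts scaled to library size with TMM factors) in every group, and of 5 root markers 1 was, with summed root levels of 6.53 to 30.2 CPM. The summed leaf markers, which are photosynthesis genes, ran from 6260 to 8454 CPM in the dark, from 3957 to 5281, 5714 to 5981 and 3730 to 4439 CPM at 2, 5 and 8 h of standard light, and from 4976 to 6669, 3732 to 7199 and 2574 to 2918 CPM at 2, 5 and 8 h of high light. Their sum was thus highest in the dark apart from overlap with T2H and T5H. It was lower in T8H than in T8L without overlap, and the share of all loci with that pattern is not given here. Of the single markers only PSBO1 had its highest mean in the dark, 3086 CPM. CAB3 and LHCB3 were highest in T5L, PSAD-1 in T5H and CA1 in T2H. CA1 was higher in T8H (657 CPM) than in T8L (417 CPM), while CAB3, LHCB3, PSAD-1 and PSBO1 were lower. The part of these markers in the members' changes was not tested. Ribosomal RNA, which the library kit was meant to remove, took from 0.0423% of counts in T5H replicate 2 to 32.9% in T5H replicate 3. The T5H group is split by it: replicates 1 and 2 were at 0.0720% and 0.0423%. The 3 T8H libraries held 19.0%, 26.0% and 24.0%, while the 3 T8L libraries held 4.02%, 8.55% and 3.58%.

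The coding sequences show how far the 4 small subunit copies can be told apart by reads of 75 bases. RBCS1A lies on chromosome 1 (chr1:25048158-25049667), and RBCS3B (chr5:15376988-15378642), RBCS2B (chr5:15380907-15382071) and RBCS1B (chr5:15383167-15385320) stand side by side on chromosome 5, all on the minus strand of TAIR10.1. RCA is on chromosome 2 (chr2:16570746-16573692), also on the minus strand, and overlaps AT2G39725 on the opposite strand, from which stranded counting separates it. The coding sequence of RBCS1A was 90.4% to 90.6% identical to those of the other copies, and the chromosome 5 copies were 96.7% to 97.3% identical to each other. The same window of 75 coding bases is printed for each copy, read 5′ to 3′ from the RefSeq TAIR10.1 genome, with capitals for bases that differ from RBCS1B; it is shown because a read from it separates some copies and not others.
RBCS1A (chr1:25048627-25048701): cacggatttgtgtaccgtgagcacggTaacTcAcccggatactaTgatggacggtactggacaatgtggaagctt
RBCS1B (chr5:15384515-15384589): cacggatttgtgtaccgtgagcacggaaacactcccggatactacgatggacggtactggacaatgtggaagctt
RBCS2B (chr5:15381368-15381442): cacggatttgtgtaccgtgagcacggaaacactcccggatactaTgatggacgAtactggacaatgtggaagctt
RBCS3B (chr5:15377666-15377740): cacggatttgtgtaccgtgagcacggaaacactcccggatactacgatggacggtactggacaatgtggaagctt

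In this window RBCS1A differed from RBCS1B at 4 bases and RBCS2B at 2, while RBCS3B was identical, within a shared run of 233 bases. Of the 75-base windows of the coding sequence alone, 100% in RBCS1A, 91.1% in RBCS2B, 65.3% in RBCS1B and 64.2% in RBCS3B were in no other copy. Over the whole annotated gene, introns included, 100% of the 75-base windows of RBCS1A and of RCA occurred once in the genome, 96.5% of those of RBCS2B, 88.7% of those of RBCS1B and 84.4% of those of RBCS3B. Reads from the shared windows were not assigned to a copy if the aligner reported them as matching more than once, so the levels of RBCS1B and RBCS3B are the least certain. The summed counts of the 4 copies, called the RBCS sum here, do not depend on which copy a counted read came from, but they too lack any shared reads that were not assigned.

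RCA is annotated with 3 coding sequences, of 474, 446 and 441 codons. In Arabidopsis a longer, redox-regulated and a shorter form of activase arise by alternative splicing, and the transcripts annotated with 474 and with 446 codons differ by 11 bases at the end of an exon, absent from the former and present in the latter, where they shift the frame. They are shown in capitals in the spliced sequence, because this junction is what tells the forms apart (chr2:16571043-16571214, minus strand).
RCA shorter exon: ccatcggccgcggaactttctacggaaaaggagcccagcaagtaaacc
RCA longer exon: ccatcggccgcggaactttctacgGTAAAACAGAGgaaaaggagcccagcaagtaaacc

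The gene counts hold both forms together, so a change in RCA is a change in their sum.

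The region before each start codon was read for letters known from light-regulated promoters. The G-box, CACGTG, is bound by bZIP and bHLH factors such as HY5, and the I-box, GATAAG, is an element known from RBCS promoters. Each motif was searched on both strands, in the 300 bases before the start codon, a window chosen after the annotated gene starts of the copies proved to differ. A G-box was found in RBCS1A, RBCS2B, RBCS3B and RCA, at 259, 216, 217 and 251 bases before the start codon, and not in RBCS1B. The shown stretches of 30 bases carry it in capitals.
RBCS1A G-box (chr1:25049491-25049520, minus strand): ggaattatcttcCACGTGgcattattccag
RBCS2B G-box (chr5:15382177-15382206, minus strand): ggagttttctgcCACGTGatcttatcctag
RBCS3B G-box (chr5:15378506-15378535, minus strand): ggagttttctgcCACGTGgccttatcctag
RCA G-box (chr2:16573579-16573608, minus strand): ataaacatattcCACGTGgaccaatcaaaa

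The I-box letters were present in all 4 small subunit copies, 2 or 3 times each with 1 base shared by the 2 matches of RBCS1B, and not in this window of RCA. The 18 bases that start with GATAAG were identical in the 3 chromosome 5 copies and at 17 positions in all 4.
RBCS1A I-box (chr1:25049462-25049491, minus strand): gcggttcaagccGATAAGggtctcaacacc
RBCS1B I-box (chr5:15385303-15385332, minus strand): aaagaaagataaGATAAGggtgtcaacacc
RBCS2B I-box (chr5:15382148-15382177, minus strand): gtggtccaaatcGATAAGggtgtcaacacc
RBCS3B I-box (chr5:15378477-15378506, minus strand): gtggtgcgtaccGATAAGggtgtcaacacc

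Among 27443 protein-coding genes, 6.28% held a G-box and 15.4% an I-box in a window of this kind. Also searched there were the GT1 core, GGTTAA, the CCA1-type motif, AAAATCT, and the evening element, AAAATATCT. The GT1 core was found in RBCS1A alone among the members, and the CCA1-type motif and the evening element in none. Of the genes 15.1% held the GT1 core, 20.1% the CCA1-type motif and 2.29% the evening element. In the 250 bases before the annotated gene start, RBCS2B alone among the members held a G-box, and RBCS2B and RCA held I-box letters. For some transcripts of RBCS1A, RBCS3B and RCA the annotated gene start lies upstream of the stretches shown. The gene start of RBCS1B, chr5:15385320, lies within its I-box stretch, whose capitals are not before that start. In the window before the gene start 6.49% of genes held a G-box and 12.3% an I-box. The GT1 core was there in RBCS1B and RBCS3B (14.6% of genes), and the CCA1-type motif (16.5%) and the evening element (2.36%) in no member. A match describes letters and is not a binding site.

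Before any contrast, the members were among the most abundant nuclear transcripts. By mean CPM over the 21 libraries, and not corrected for length, RBCS1A ranked 1 of 18647 nuclear protein-coding loci, RCA 2, RBCS3B 3, RBCS2B 5 and RBCS1B 9. Per kilobase of annotated exon in the dark, with counts that also take in reads from introns, RBCS1A stood at 8883 ± 2197 CPM per kb, RBCS2B at 5322 ± 1243, RCA at 3819 ± 469, RBCS3B at 3773 ± 860 and RBCS1B at 1101 ± 225 (SD, n = 3). Per kilobase of the gene span that was counted, RBCS3B stood at 3214 and RCA at 2723 CPM per kb, which reversed their order. By either length RBCS1A was the leading copy, and RBCS1B, whose annotated exons are long (1894 bases against 935 in RBCS2B), the lowest.

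The first question was how small subunit transcripts moved from the end of the night into the day. In standard light the RBCS sum fell below the night level at 2, 5 and 8 h. In high light it did not pass the test against the night at 2 and 5 h and fell by 8 h. In the dark the RBCS sum was 17498, 25220 and 28215 CPM in replicates 1, 2 and 3. In standard light it was 9869, 9159 and 14512 CPM at 2 h, 9019, 9484 and 8501 CPM at 5 h, and 8855, 9388 and 7865 CPM at 8 h. Every standard-light library lay below every dark library, and the share of all loci that showed this was not counted. In high light it was 19874, 29837 and 16387 CPM at 2 h, 30834, 30108 and 7325 CPM at 5 h, and 10860, 10312 and 10298 CPM at 8 h. The third T5H library, the one with the highest ribosomal RNA share, was the lowest of all 21, while the other two T5H libraries were the highest. Ordered by mean, the groups ran T0D, T5H, T2H, T2L, T8H, T5L and T8L. The ranges of neighbours did not overlap between T2H and T2L or between T8H and T5L, and overlapped for the other neighbours in that order.

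**Figure D1:**
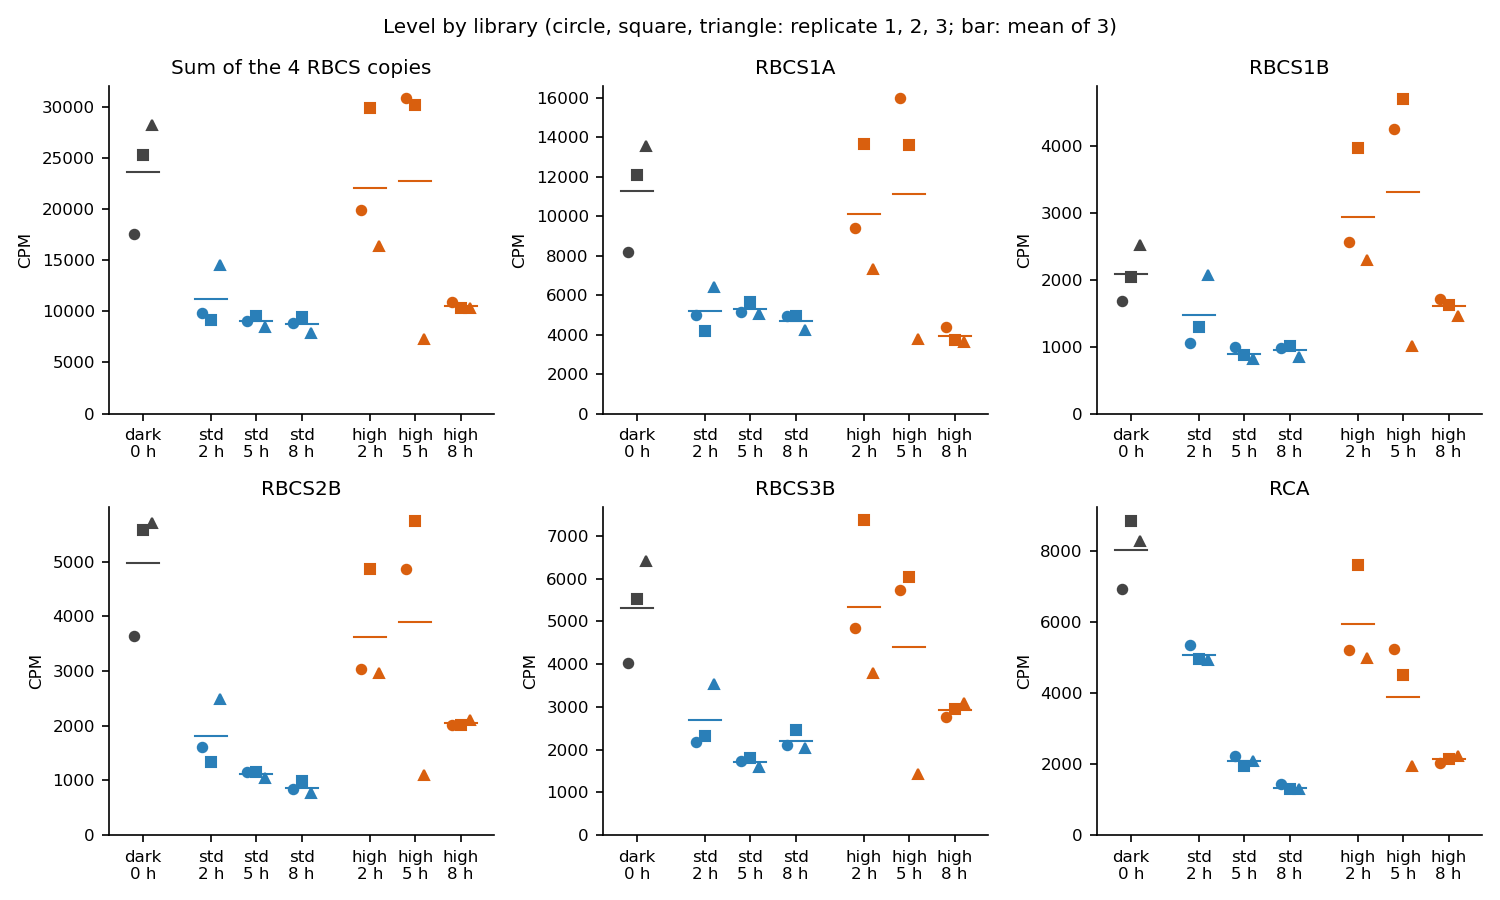
Level of the RBCS sum, of each copy and of RCA in CPM (linear axes from 0) for the dark group, the 3 standard-light groups and the 3 high-light groups; each point is 1 library, its shape the replicate number, and the bar is the mean of 3. The RBCS sum lies between 7865 and 14512 CPM in all 9 standard-light libraries, and the third T5H library, at 7325 CPM, lies far below the other two of its group.

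All loci were tested with edgeR's quasi-likelihood method (log2 fold change ± SE). P-values were adjusted by Benjamini-Hochberg over 19626 loci and called under 0.05. The RBCS sum was tested in a separate fit, with 1 row in place of the 4 copies, and adjusted over the loci of that fit. Shares of loci called are from the fit with the single copies. The RBCS sum fell from dark in standard light, with −1.08 ± 0.35 at 2 h (adjusted p = 0.0154), −1.39 ± 0.35 at 5 h (adjusted p = 0.00221) and −1.44 ± 0.35 at 8 h (adjusted p = 0.00192). Of the 4 copies, RBCS1A, RBCS2B and RBCS3B fell at 2 h, with RBCS1B at −0.50 ± 0.36 (adjusted p = 0.285), and all 4 fell at 5 and at 8 h. At 2 h the call of the RBCS sum was lost without T0D replicate 3, T2L replicate 1 or T2L replicate 2 (adjusted p 0.0588 to 0.0686 without them, 0.00271 to 0.0686 over all alternatives). At the same time RBCS1A lost its call in 2 and RBCS3B in 4 of the 6 fits without 1 library, and RBCS3B also with the ribosomal RNA covariate (adjusted p up to 0.0563 and 0.102). Without T0D replicate 3 RBCS1A was not called at 5 h (adjusted p = 0.0516) nor RBCS1B at 8 h (0.0644), and RBCS1B was not called at 8 h without T8L replicate 3 (0.0582). In these contrasts 21.4%, 23.8% and 21.7% of all loci were called lower. RBCS2B had the most negative values of the copies at each time, −1.46 ± 0.38, −2.16 ± 0.39 and −2.52 ± 0.39. In the authors' deposited table, which holds their own test against a minimum fold, RBCS2B is listed as lower than dark at 2, 5 and 8 h of standard light, with log2 fold changes of −1.45, −2.19 and −2.53. It also lists RBCS1B (−1.25) and RBCS3B (−1.67) at 5 h, and RBCS1A (−1.28) and RBCS3B (−1.29) at 8 h. For 8 h of high light against dark it lists RBCS1A (−1.53) and RBCS2B (−1.28) among the copies.

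In high light none of the 4 copies passed the test against dark at 2 or 5 h, where 43.3% and 47.2% of loci were called in either direction, and the RBCS sum differed by −0.10 ± 0.35 and −0.06 ± 0.35. With the ribosomal RNA covariate, however, RBCS2B was called lower at 2 h (−0.74, adjusted p = 0.0176), and RBCS2B (−0.91), RBCS3B (−0.78) and the RBCS sum (−0.56, adjusted p = 0.0328) were at 5 h. Without T5H replicate 3 the difference of the RBCS sum at 5 h was 0.36 (adjusted p = 0.195), and RBCS1B was then called higher than dark, by 1.10 (adjusted p = 0.000417; 23.2% of loci were called higher in that fit). By 8 h RBCS1A (−1.53 ± 0.35), RBCS2B (−1.28 ± 0.38) and RBCS3B (−0.86 ± 0.35) had fallen, as had the RBCS sum (−1.17 ± 0.35, adjusted p = 0.00799), and RBCS1B had not passed (−0.38 ± 0.36, adjusted p = 0.407); 23.9% of loci were called lower. With the ribosomal RNA covariate the RBCS sum was −0.49 (adjusted p = 0.0818), RBCS2B −0.60 (0.0754) and RBCS3B −0.14 (0.631), none of them called, and RBCS3B also lost its call in limma voom, with the replicate block and without T0D replicate 2 or 3 or any 1 T8H library (adjusted p 0.0518 to 0.157). The RBCS sum did not pass between 2 and 5 h of high light (0.05 ± 0.35) or in the standard-light steps from 2 to 5 h (−0.31 ± 0.35) and from 5 to 8 h (−0.05 ± 0.35). From 5 to 8 h of high light it fell by 1.12 ± 0.35 (adjusted p = 0.0244), where 12.8% of loci were called lower. That last step coincides with the ribosomal RNA shares given above, and with the ribosomal RNA share as a covariate it was 0.07 (adjusted p = 0.925, over all alternatives 2.19e-05 to 0.925). It also lost its call without T5H replicate 1 or 2 and without any 1 T8H library (adjusted p 0.0752 to 0.185), in limma voom and in the fit of the 2 groups alone.

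The comparison the design centres on is high against standard light at the same hour. After 5 h, transcripts of all 4 copies were higher in high light, RBCS1B and RBCS2B more than 3-fold by the ratio of means. RBCS1B was 4254, 4709 and 1006 CPM in T5H and 999, 880 and 815 CPM in T5L. All 3 T5H libraries of RBCS1B were above all T5L libraries, the third one only just, and 14.9% of loci showed high light above standard light without overlap at this time. RBCS2B was 4866, 5746 and 1102 CPM in T5H and 1149, 1146 and 1040 CPM in T5L, so that the third T5H library fell within the range of standard light. RBCS1A was 15971, 13621 and 3796 CPM against 5143, 5650 and 5050 CPM, and RBCS3B 5743, 6032 and 1420 CPM against 1728, 1807 and 1595 CPM. For these copies replicates 1 and 2 were far above and replicate 3 below the standard-light libraries.

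By the same test RBCS1B rose by 1.89 ± 0.37 (adjusted p = 0.00234), RBCS2B by 1.81 ± 0.38 (adjusted p = 0.00373), RBCS3B by 1.36 ± 0.35 (adjusted p = 0.0139), RBCS1A by 1.08 ± 0.34 (adjusted p = 0.0414) and the RBCS sum by 1.34 ± 0.35 (adjusted p = 0.0149). All 4 copies were called higher, where 7.29% of loci were. Without T5H replicate 3 the rise of the RBCS sum was 1.73 (adjusted p = 1.01e-05), with 11.4% of loci called higher, and the 4 copies again were called. Over all alternatives the adjusted p of the RBCS sum ran from 1.01e-05 to 0.172. The call of the RBCS sum was lost without T5H replicate 1 (1.02, adjusted p = 0.110), T5H replicate 2 (1.04, 0.0870), T5L replicate 1 (0.0587) or T5L replicate 3 (0.0631), in limma voom (1.05, 0.0521), with the ribosomal RNA covariate (0.64, 0.0666) and in a fit of the T5H and T5L libraries alone (1.33, 0.172). RBCS1A lost its call in all fits without 1 library except that without T5H replicate 3, and in limma voom, with the covariate (0.42), with the replicate block (adjusted p = 0.0594) and in the 2 groups alone (adjusted p 0.0594 to 0.279 in all of these). RBCS3B lost its call in 4 of the 6 fits without 1 library, in limma voom, with the covariate (0.65) and in the 2 groups alone (adjusted p 0.0554 to 0.145). RBCS1B and RBCS2B were called in each fit that left out 1 library, though not in the fit of the T5H and T5L libraries alone (adjusted p = 0.0767 and 0.0902). In the authors' deposited table RBCS1B and RBCS2B, and none of the other members, are listed for this contrast, with log2 fold changes of 1.89 and 1.81.

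At 2 h no copy passed in the reported fit, although their levels in high light lay above those in standard light without overlap. With no filter on low counts RBCS1B, RBCS2B and RBCS3B were called higher (adjusted p = 0.0194, 0.0277 and 0.0397). RBCS1A was 9418, 13626 and 7313 CPM in T2H and 5014, 4202 and 6396 CPM in T2L. RBCS3B was 4856, 7371 and 3797 CPM in T2H and 2187, 2319 and 3546 CPM in T2L. All T2H libraries of each copy were above all T2L libraries, a pattern shown by 10.5% of all loci, while 1.45% of loci were called higher. The log2 fold changes were alike across copies, 0.96 ± 0.34 for RBCS1A, 1.00 ± 0.36 for RBCS1B, 1.00 ± 0.37 for RBCS2B and 0.99 ± 0.35 for RBCS3B, with adjusted p from 0.126 to 0.153. The RBCS sum differed by 0.98 ± 0.35 (adjusted p = 0.129). The ribosomal RNA share was 0.295%, 0.0752% and 4.98% in T2H and 17.2%, 13.1% and 4.57% in T2L, and with that share as a covariate the RBCS sum differed by 0.23 (adjusted p over all alternatives 0.0574 to 0.763).

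At 8 h RBCS2B alone among the copies passed the test. It was 2018, 2019 and 2107 CPM in T8H and 847, 986 and 769 CPM in T8L, with every high-light library above every standard-light one. RBCS2B rose by 1.24 ± 0.38 (adjusted p = 0.0276), where 7.79% of loci were called higher, and lost the call in each fit that left out 1 of the 6 libraries (adjusted p 0.0542 to 0.104, values 1.16 to 1.34). RBCS1A was 4364, 3710 and 3641 CPM in T8H and 4916, 4929 and 4208 CPM in T8L, and its difference was −0.26 ± 0.34 (adjusted p = 0.679). Its ranges overlapped. RBCS1B (0.76 ± 0.36, adjusted p = 0.173) and RBCS3B (0.41 ± 0.35, adjusted p = 0.483) did not pass, although for both all T8H libraries were above all T8L libraries, as for 21.8% of loci. Both were called with the ribosomal RNA covariate (1.14 and 0.78) and in the fit of T8H and T8L alone (0.79 and 0.45). The RBCS sum differed by 0.27 ± 0.35 (adjusted p = 0.678), and it too was called in those 2 fits (0.63, adjusted p = 0.0393, and 0.30, adjusted p = 0.0287). Averaged over the 3 times, all 4 copies rose in high light, RBCS2B by 1.35 ± 0.22, RBCS1B by 1.21 ± 0.21, RBCS3B by 0.92 ± 0.20 RBCS1A by 0.59 ± 0.20 (adjusted p = 0.0329) and the RBCS sum by 0.86 ± 0.20 (adjusted p = 0.00329), where 12% of loci were called higher. RBCS1A lost this call in limma voom (0.49), with the ribosomal RNA covariate (0.24, adjusted p = 0.195) and in 10 of 18 fits without 1 library (adjusted p 0.0508 to 0.0857). The high-light effect at 8 h less that at 2 h did not pass for any copy in the reported fit, where 10.2% of loci were called in either direction, being −1.22 ± 0.48 for RBCS1A (adjusted p = 0.107; called in the fit of the 4 groups alone, adjusted p = 0.0142) and 0.24 ± 0.52 for RBCS2B (adjusted p = 0.828).

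**Figure D2:**
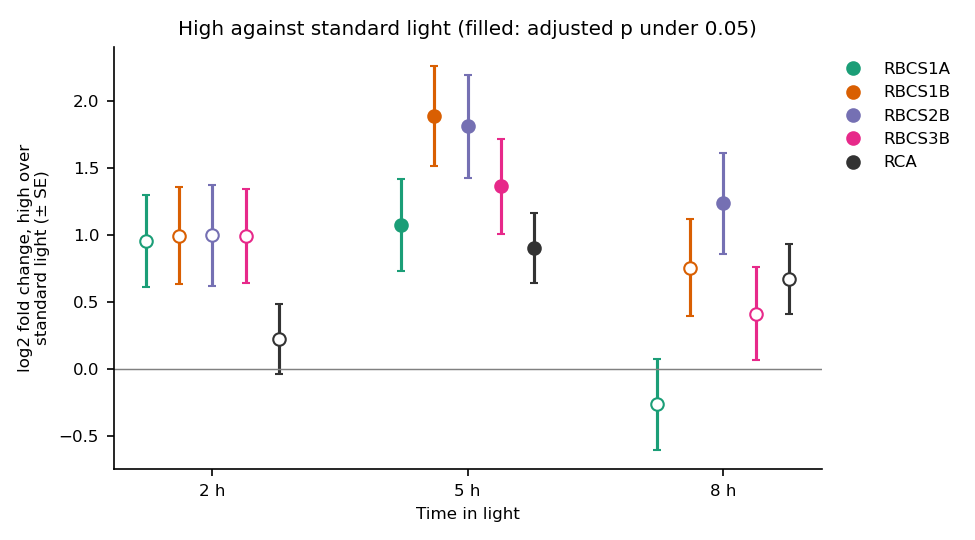
Log2 fold change of high over standard light at 2, 5 and 8 h for each member, with bars of 1 SE and filled points where the adjusted p was under 0.05. The 4 copies lie together at 2 h, between 0.96 and 1.00, and apart at 8 h, from −0.26 for RBCS1A to 1.24 for RBCS2B.

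Within a library, the share of each copy in the RBCS counts does not depend on how the library was scaled. RBCS1A held 44.1% to 50.8% at night and at 2 h in either light, and at 5 and 8 h it held less in high than in standard light. In the dark the RBCS1A share was 46.6%, 47.9% and 48.0%. In standard light it was 50.8%, 45.9% and 44.1% at 2 h, 57.0%, 59.6% and 59.4% at 5 h, and 55.5%, 52.5% and 53.5% at 8 h. In high light it was 47.4%, 45.7% and 44.6% at 2 h, 51.8%, 45.2% and 51.8% at 5 h, and 40.2%, 36.0% and 35.4% at 8 h. The groups overlapped at 2 h and were apart at 5 and 8 h. The third T5H library, which stood out in level, had the same share as the first, 51.8%.

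The mean high-minus-standard difference over the 3 times was −8.91 percentage points (two-sided exact permutation test with light labels permuted within each time, 8000 regroupings, p = 0.002). Adjusted over the 6 shares and ratios tested this way, the exact permutation p was 0.00375, and the differences by time were −1.02, −9.05 and −16.7 percentage points. The difference at 8 h less that at 2 h was −15.6 percentage points (exact permutation p = 0.065, adjusted 0.0975), and without T2L replicate 1 it was −17.6 (exact permutation p = 0.025). These permutations assume no light difference at either time. Dividing each copy's counts by its number of windows that occur once in the genome left the direction and the call as they were. The RBCS2B share moved the other way. It was 20.8%, 22.1% and 20.3% in the dark, was 9.57%, 10.5% and 9.78% at 8 h of standard light, and was 18.6%, 19.6% and 20.5% at 8 h of high light. Its mean difference was 4.80 percentage points (exact permutation p = 0.002, adjusted 0.00375). The RBCS1B share was higher by 3.05 percentage points (exact permutation p = 0.0025, adjusted 0.00375), and the RBCS3B share differed by 1.07 (exact permutation p = 0.14, adjusted 0.168). The shares of the 3 chromosome 5 copies were tested after the shares had been seen, and the 4 shares sum to a whole, so they are not independent.

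**Figure D3:**
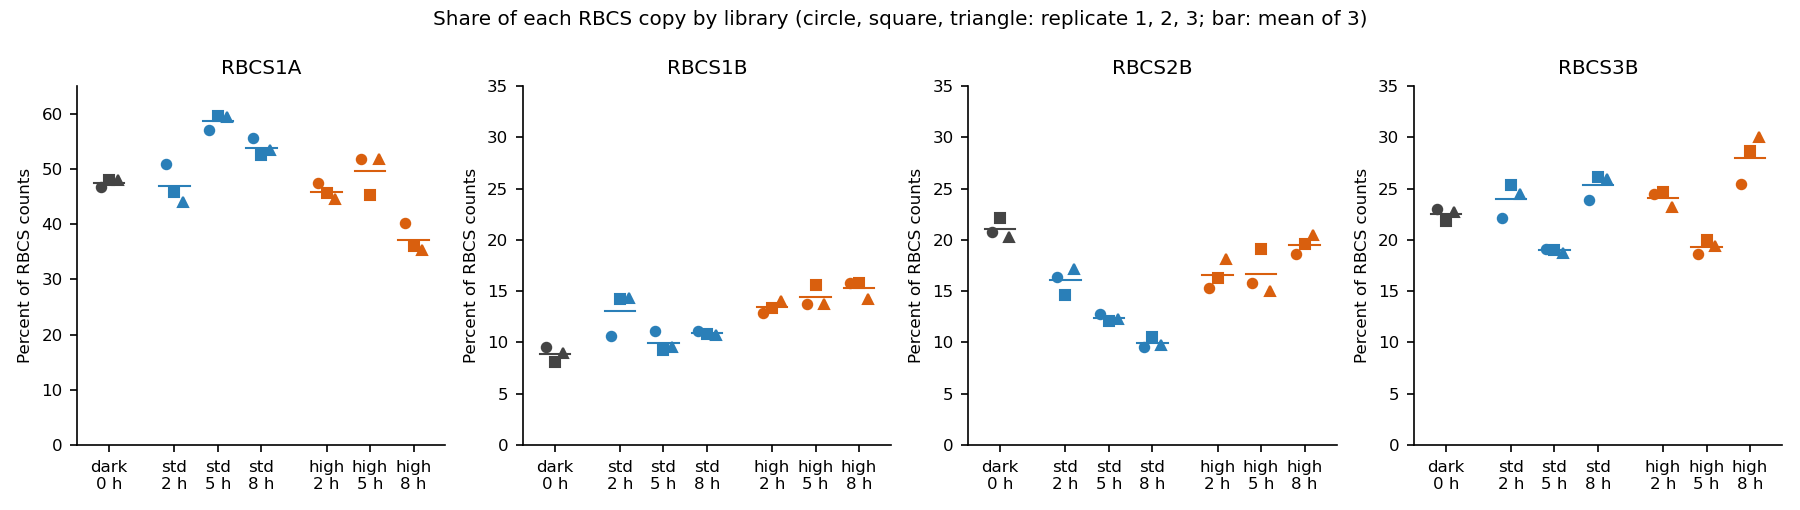
Percent of the RBCS counts of a library that each copy holds (linear axes from 0), 1 point per library, with the replicate number as shape and the mean of 3 as bar. At 8 h the RBCS1A share is 52.5% to 55.5% in standard light and 35.4% to 40.2% in high light, and the RBCS2B share is 9.57% to 10.5% and 18.6% to 20.5%.

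RCA fell below the night level at 2, 5 and 8 h of standard light, and in high light at 5 and 8 h. The level was 6938, 8857 and 8278 CPM in the dark, then 5352, 4971 and 4922 CPM at 2 h, 2218, 1955 and 2096 CPM at 5 h and 1437, 1289 and 1289 CPM at 8 h of standard light. The 4 groups did not overlap, and the share of all loci that showed this was not counted. In high light RCA was 5224, 7611 and 4993 CPM at 2 h, 5249, 4517 and 1947 CPM at 5 h and 2025, 2130 and 2236 CPM at 8 h. Ordered by mean, the groups ran T0D, T2H, T2L, T5H, T8H, T5L and T8L, and among neighbours in that order the ranges were apart only between T5L and T8L.

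Against dark RCA fell, with −0.66 ± 0.26 (adjusted p = 0.0443), −1.94 ± 0.27 (adjusted p = 1.85e-06) and −2.58 ± 0.28 (adjusted p = 3.93e-08) at 2, 5 and 8 h of standard light. At these times 21.4%, 23.8% and 21.7% of loci were called lower. The call at 2 h was lost with no filter on low counts (adjusted p = 0.112), with the ribosomal RNA covariate (−0.38, adjusted p = 0.111), and without T0D replicate 2 or 3 or any 1 T2L library (adjusted p 0.0725 to 0.129), and the later ones held in all fits. The step from 2 to 5 h was −1.28 ± 0.26 (adjusted p = 0.000852; 10.5% of loci were called lower), and that from 5 to 8 h was −0.64 ± 0.26 (adjusted p = 0.0846, over all alternatives 0.000277 to 0.212). In high light the difference from dark was −0.43 ± 0.26 at 2 h (adjusted p = 0.188). RCA had fallen by 1.04 ± 0.26 at 5 h (adjusted p = 0.002, over all alternatives 2.3e-06 to 0.0788), where 22.8% of loci were called lower. By 8 h RCA had fallen by 1.91 ± 0.27 (adjusted p = 2.25e-06), where 23.9% of loci were called lower. The 2 h difference was called with the ribosomal RNA covariate (−0.60, adjusted p = 0.00779), and that at 5 h was not in the fit of T5H and T0D alone. The step from 2 to 5 h of high light was −0.61 ± 0.26 (adjusted p = 0.118, over all alternatives 0.00625 to 0.455). From 5 to 8 h RCA fell by 0.87 ± 0.26 (adjusted p = 0.0183), where 12.8% of loci were called lower, and by 0.22 with the ribosomal RNA covariate (adjusted p = 0.638). The call was also lost in the fit of the 2 groups alone, without T5H replicate 1 or 2 and without any 1 T8H library (adjusted p 0.0655 to 0.197). The authors' deposited table lists RCA as lower than dark at 5 and 8 h of standard light (−1.97 and −2.60). It also lists RCA as lower than dark at 5 and 8 h of high light (−1.07 and −1.91).

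In high light RCA rose over standard light at 5 h, by 0.90 ± 0.26 (adjusted p = 0.0252), where 7.29% of loci were called higher. As with the small subunit, replicates 1 and 2 of T5H were above all T5L libraries and replicate 3 below them. The rise was 1.20 without T5H replicate 3 (adjusted p = 4.48e-05), 0.62 without replicate 1 (adjusted p = 0.198) and 0.74 without replicate 2 (adjusted p = 0.108). The call was also lost without any 1 T5L library (adjusted p 0.0716 to 0.0956), with no filter (0.0521), with the ribosomal RNA covariate (0.54, 0.08) and in the 2 groups alone (0.21), and over all alternatives the adjusted p ran from 4.48e-05 to 0.21. At 2 h the difference was 0.23 ± 0.26 (adjusted p = 0.696), and the ranges overlapped. At 8 h it was 0.67 ± 0.26 (adjusted p = 0.0841) with all T8H libraries above all T8L libraries, as for 21.8% of loci. DESeq2, limma voom, the ribosomal RNA covariate and the 2 groups alone called the 8 h difference (adjusted p = 0.0327, 0.0442, 0.00149 and 0.000182, over all alternatives 0.000182 to 0.217). Averaged over the times RCA rose by 0.60 ± 0.15 (adjusted p = 0.00559), where 12% of loci were called higher. The effect at 8 h less that at 2 h was 0.44 ± 0.37 (adjusted p = 0.492).

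The ratio of RCA to the RBCS sum within a library compares the 2 transcripts directly. On the log2 scale of counts, not corrected for length, it was −1.33, −1.51 and −1.77 in the dark. In standard light it was −0.88, −0.88 and −1.56 at 2 h, −2.02, −2.28 and −2.02 at 5 h and −2.62, −2.86 and −2.61 at 8 h. In high light it was −1.93, −1.97 and −1.71 at 2 h, −2.55, −2.74 and −1.91 at 5 h and −2.42, −2.28 and −2.20 at 8 h. High light lay below standard light at 2 h, overlapped with it at 5 h and lay above it at 8 h. The differences by time were −0.76, −0.29 and 0.40, and their mean of −0.22 did not pass (two-sided exact permutation p = 0.22, adjusted 0.22). The difference at 8 h less that at 2 h was 1.16, with an exact permutation p of 0.005, the smallest that the 400 regroupings within times allow, and 0.03 after adjustment over 6 measures; this comparison was added after the ratios had been seen, and permuting light labels assumes no light difference at either time. With 1 of the 12 libraries left out it ran from 1.05 to 1.39 (exact permutation p 0.005 to 0.02, of 200 regroupings).

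The partner of the small subunit, rbcL, was set beside it. Per library rbcL was 106690 to 133944 CPM in the dark, 72280 to 137768 CPM in standard light and 60877 to 103610 CPM in high light. It passed in none of the 3 comparisons of high with standard light, with −0.16 ± 0.25, −0.71 ± 0.25 (adjusted p = 0.0624) and −0.35 ± 0.25 at 2, 5 and 8 h, and fell by 0.40 ± 0.14 averaged over the times (adjusted p = 0.0431; 9.91% of loci were called lower). At 5 and 8 h all high-light libraries of rbcL were nonetheless below all standard-light ones, with ratios of means of 0.61 and 0.78. The share of all loci with that pattern is not given here. A ratio of the RBCS sum to rbcL takes in changes of both transcripts. Chloroplast RNA lacks the long tails of nuclear messages, and these total-RNA libraries count both. The log2 ratio of the RBCS sum to rbcL was −2.94, −2.08 and −2.11 in the dark, −3.72, −3.76 and −4.08 in T8L and −3.22, −3.16 and −3.33 in T8H. At 5 h it was −3.60, −3.79 and −3.90 in standard light and −0.98, −1.22 and −3.69 in high light, so the third T5H library again lay within the standard-light range. At 2 h it was −2.87, −3.43 and −3.25 in standard light and −2.35, −1.47 and −2.50 in high light, without overlap. The ratio was higher in high light by 1.17 on average over the times (two-sided exact permutation p = 0.0005, adjusted 0.003), and by 1.45 without T5H replicate 3.

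**Figure D4:**
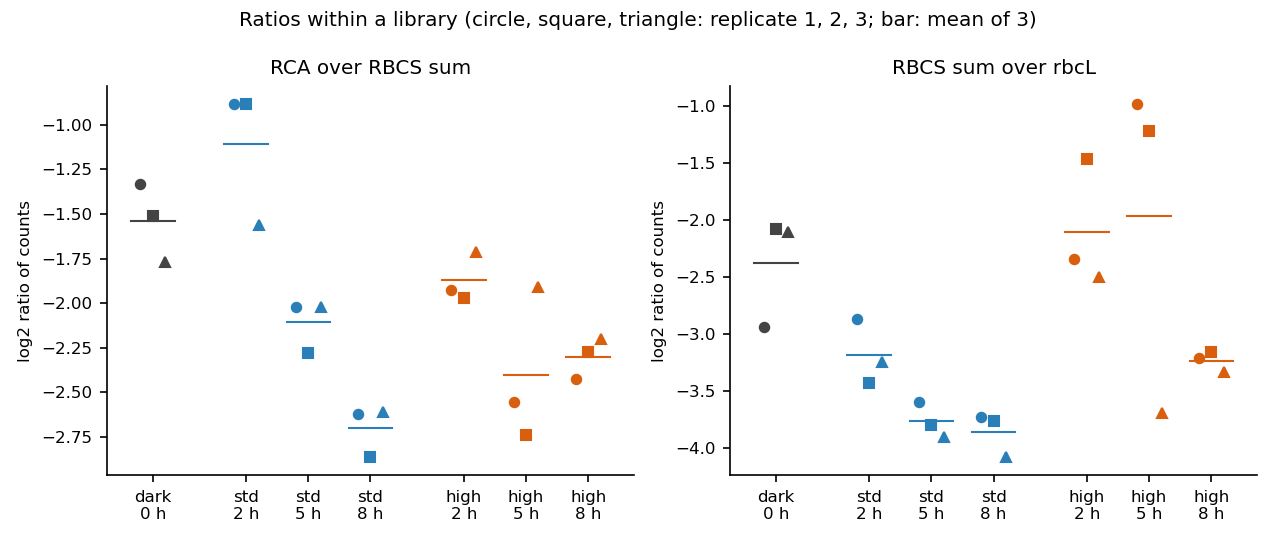
Log2 ratio of counts within a library for RCA over the RBCS sum (left) and the RBCS sum over rbcL (right), 1 point per library, with the replicate number as shape and the mean of 3 as bar. On the left, high light lies below standard light at 2 h and above it at 8 h; on the right, it lies above standard light at 2 and 8 h, with 1 of 3 libraries within the standard-light range at 5 h.

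The members' levels also moved with the ribosomal RNA share within groups when all groups were fitted together. In a fit with 1 term per group and the log2 ribosomal RNA share as a covariate, the RBCS sum changed by −0.17 ± 0.03 per doubling of the share (adjusted p = 0.0011) and RCA by −0.10 ± 0.02 (adjusted p = 0.0132). All 5 members were called lower with a higher share, as were 2.97% of loci. In that fit the RBCS sum differed between high and standard light by 0.23 at 2 h, by 0.64 at 5 h (adjusted p = 0.0666) and by 0.63 at 8 h (adjusted p = 0.0393), and RCA by −0.23, 0.54 (adjusted p = 0.08) and 0.89 (adjusted p = 0.00149). RBCS1B and RBCS2B rose at 5 h in it, by 1.14 and 1.07, and at 8 h, by 1.14 and 1.60. The share partly coincides with the groups, and its part in the differences between groups was not tested further.

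**Figure D5:**
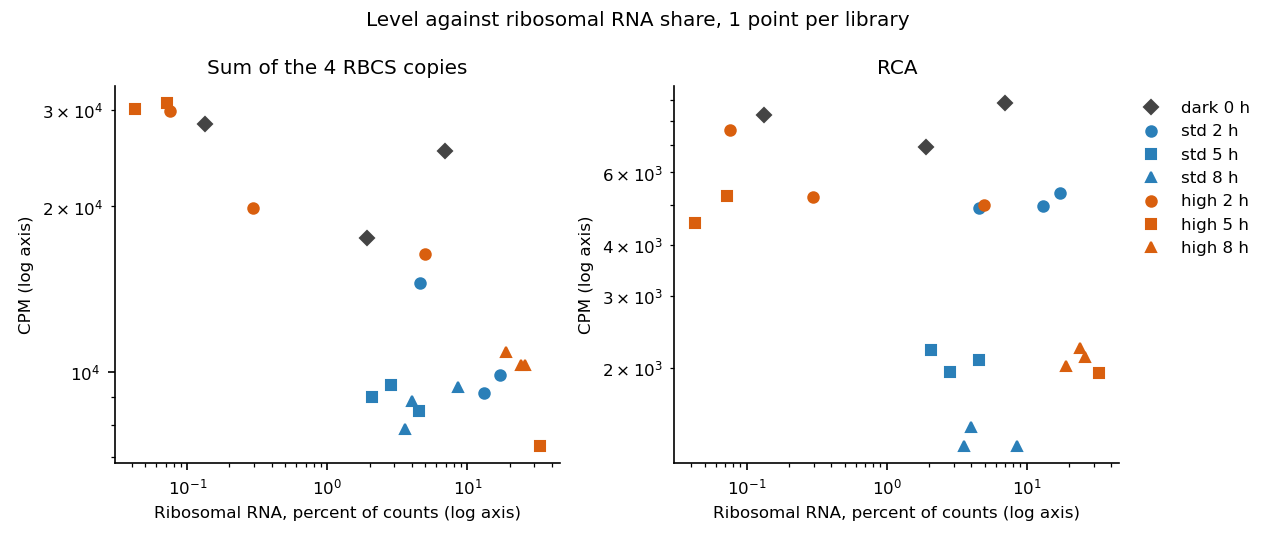
Level of the RBCS sum and of RCA in CPM against the ribosomal RNA share of the library, both on log axes, 1 point per library. The libraries with the lowest shares, 2 of T5H and 1 of T2H, are the 3 highest for the RBCS sum, and T5H replicate 3, at 32.9%, is the lowest.

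Other genes of the pathway were read from lists, in the reported fit alone. No alternative fit was read for the list genes, and the split of T5H and the ribosomal RNA shares given above apply to them too. Among 19 genes for the assembly and care of Rubisco, such as the chaperonins that fold the large subunit, 0 were called at 2 h of high against standard light (19 not passed), 6 rose at 5 h, where 7.29% of loci were called higher, and 12 rose at 8 h, where 7.79% were, and none fell at 5 or 8 h. The list's median log2 fold changes were −0.04, 0.45 and 0.84, beside medians over all loci of −0.00063, 0.02 and −0.03. Cpn60beta2, a chaperonin subunit, rose by 1.62 ± 0.30 at 5 h (adjusted p = 0.00145) and 1.75 ± 0.30 at 8 h (adjusted p = 0.000418). AT5G28500 rose by 1.14 ± 0.26 and 1.74 ± 0.26. CPN60A, also a chaperonin subunit, rose by 0.99 ± 0.24 at 5 h, and Cpn60alpha2 by 1.38 ± 0.32 at 8 h. Against dark 14 of the 19 rose at 2 h of standard light (21.1% of loci were called higher), where RBCS1A, RBCS2B, RBCS3B and RCA fell.

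Of 19 other genes of the Calvin-Benson cycle, 0 were called at 2 h, 9 rose at 5 h (7.29% of all loci) and 4 rose at 8 h (7.79%), with medians of 0.05, 0.69 and 0.27. CP12-2, a small protein that links 2 enzymes of the cycle into an inactive complex in the dark, rose by 1.63 ± 0.24 at 5 h (adjusted p = 0.000148). Its relative CP12-1 rose by 1.12 ± 0.27 at 5 h and 1.55 ± 0.27 at 8 h. FBA1, a plastid aldolase, rose by 1.36 ± 0.30 and 0.89 ± 0.29, and EMB3119 by 1.15 ± 0.17 at 8 h. Against dark at 5 h of standard light 10 of the 19 fell, where 23.8% of loci were called lower, and 2 rose, where 22.9% were called higher.

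Of 9 transcription factors known to act on photosynthesis genes, 3 rose and 1 fell at 2 h, 4 rose at 5 h, and 3 rose and 2 fell at 8 h; the medians were 0.41, 0.65 and 0.45. HY5, a bZIP factor of light signalling, rose by 0.90 ± 0.24, 2.58 ± 0.28 and 2.31 ± 0.27 at the 3 times. Its homologue HYH rose by 1.92 ± 0.28 at 5 h and 1.83 ± 0.29 at 8 h. CGA1, a GATA factor of chloroplast development, rose by 1.68 ± 0.23, 2.57 ± 0.24 and 1.93 ± 0.25. GBF3, a G-box-binding factor, rose by 1.18 ± 0.26 at 2 h and fell by 0.82 ± 0.25 at 8 h. Of the GOLDEN2-like factors, which activate photosynthesis genes, GLK2 fell by 0.78 ± 0.18 at 2 h and GPRI1, also called GLK1, by 0.57 ± 0.19 at 8 h. Of all loci 1.45%, 7.29% and 7.79% were called higher at 2, 5 and 8 h, and 1.22% and 7.62% lower at 2 and 8 h. At 8 h of standard light all 9 had fallen below dark, where 21.7% of loci were called lower.

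Across the 21 libraries the 3 chromosome 5 copies were most alike in pattern. Pearson's r of log2 CPM was 0.91 to 0.94 among the 3 chromosome 5 copies, 0.82 to 0.86 between RBCS1A and those copies, and 0.70 to 0.85 between RCA and the copies. These are descriptions over libraries that share groups and the ribosomal RNA share. Among 2811 nuclear genes with a mean log2 CPM of at least 5, the patterns most like the RBCS sum were those of AT4G39200 (r = 0.93), APE1 (0.93), AT1G15270 (0.93), AT1G51650 (0.92) and PFN2, a profilin (0.92). Most like RCA were APS1, an ATP sulfurylase of sulfate assimilation (0.97), GLDP2, a subunit of glycine decarboxylase (0.96), BCA4, a carbonic anhydrase (0.95), HPR, the hydroxypyruvate reductase of photorespiration (0.95), and HA11, a proton pump (0.95). No gene was on both lists of 5.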

How the data were processed

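The 21 libraries were grouped by their titles. Per the labels' protocols, total RNA was made into stranded, ribosomal-RNA-depleted libraries and sequenced as single-end reads of 75 bp; the submitters' processing notes name Trim Galore 0.4.4 and Subread 1.5.0. Per the file headers, the deposited raw counts came from featureCounts 1.5.0-p1 in reverse-stranded mode over 1 span per gene, introns included, without its options for multi-mapping or multi-overlapping reads. Aligner settings and build: not given in the sources used here; 32908 of 32909 matched loci had the TAIR10.1 start and end. The authors' deposited comparison table gives log2 fold changes and adjusted p-values (FDR) from glmTreat of edgeR, its minimum fold not stated; their deposited log2 RPKM table was not used.

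Counts were tested in R 4.3.3 with edgeR 4.0.16 (TMM, filterByExpr, robust quasi-likelihood, 1 term per group, all 21 libraries; SE from the log2 fold change and its F statistic). The RBCS sum replaced the 4 copies by 1 row in a separate fit. Alternatives were DESeq2 1.42.0, limma 3.58.1 voom, DESeq2 size factors, no filter, nuclear protein-coding loci alone, a ribosomal RNA covariate, a replicate block, the contrast's groups alone, and each library left out; the fit was tested on simulated data. Shares and ratios used exact permutations within times. Named list genes were up to 3 per list, direction and light contrast with the largest called change; the most similar genes were the 5 with the highest r. Members and lists were chosen with earlier results of these data known.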

Additional observations from a re-analysis of the deposited data

Results flagged for a closer look

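The log2 ratio of RCA to the RBCS sum stands out because its high-light difference changed between times: it was −0.76 at 2 h and 0.40 at 8 h, a change of 1.16 (two-sided exact permutation within times, p = 0.005, the smallest possible; 0.03 adjusted over 6 measures, a comparison added after the data were seen). Permuting light labels within times assumes no light difference at either time, so this p does not test an equal difference at both times. With 1 library left out the change ran from 1.05 to 1.39. All 3 T2H libraries lay below all 3 T2L libraries, and all 3 T8H libraries above all 3 T8L libraries. The ribosomal RNA share was lower in T2H than in T2L on average (1.78% ± 2.77 against 11.6% ± 6.44, SD, n = 3) and higher in T8H than in T8L (23% ± 3.59 against 5.38% ± 2.75), and its part in the change of the ratio was not tested.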

How the results depend on the processing

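Of 606 values under alternatives that kept every library, 531 kept their direction and their side of the threshold, and of 684 values with 1 library left out 596 did. The cause of the changes was not tested, beyond the smaller number of libraries in some fits. All values are log2 fold changes. With the ribosomal RNA share as a covariate, high against standard light gave −0.23 for RCA at 2 h, 0.54 for RCA and 0.64 for the RBCS sum at 5 h (neither called), and 0.084 for RBCS1A, 0.89 for RCA and 0.63 for the RBCS sum at 8 h (the last 2 called). Against dark that covariate gave 0.0024 for RBCS1B and −0.38 for RCA in T2L, −0.29 for RBCS3B and −0.60 for RCA in T2H, −0.56 for the RBCS sum in T5H, and 0.37 for RBCS1B and −0.49 for the RBCS sum in T8H. In the steps it gave −0.59 (2 to 5 h, standard), 0.084 (5 to 8 h, standard), −0.17 (2 to 5 h, high) and 0.069 (5 to 8 h, high) for the RBCS sum, and −0.57 (5 to 8 h, standard), −0.70 (2 to 5 h, high) and −0.22 (5 to 8 h, high) for RCA. The effect at 8 h less that at 2 h became 0.92 for RBCS1B, 0.58 for RBCS3B, 1.11 for RCA (called) and 0.40 for the RBCS sum. Fits of the contrasted groups alone gave 0.89 for RCA and 1.33 for the RBCS sum at 5 h (not called), 0.70 and 0.30 at 8 h (called), −1.03 for RCA in T5H against dark (not called), −0.64 for RCA from 5 to 8 h of standard light (called), and −0.83 for RCA and −1.08 for the RBCS sum from 5 to 8 h of high light (not called). Limma voom gave 1.05 for the RBCS sum at 5 h and −0.83 for its step from 5 to 8 h of high light (not called), −0.20 for its step from 2 to 5 h, and called RCA at 8 h (0.67) and in the steps of −0.64 (5 to 8 h, standard) and −0.72 (2 to 5 h, high). DESeq2 called RCA at 8 h (0.67) and from 5 to 8 h of standard light (−0.61). With no filter RCA lost its calls at 5 h (0.89) and in T2L against dark (−0.66), and RBCS1B, RBCS2B and RBCS3B gained theirs at 2 h of high against standard light (1.00, 1.00 and 0.99). RBCS3B in T2H against dark, 0.0059 in the reported fit, was −0.0041 with DESeq2 and with its size factors in edgeR, −0.025 with limma voom and −0.011 with nuclear protein-coding loci alone.

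With the replicate block, 79 of 82 results kept direction and call. RBCS1A at 5 h (1.03, adjusted p = 0.0594) and RBCS3B in T8H against dark (−0.86, adjusted p = 0.0518) lost their calls, and RBCS3B in T2H against dark was −0.029. No pairing of samples by replicate number was seen: of 63 same-number pairs, 2 had deviations correlated above 0.1, with r from −0.14 to 0.33. Of 126 pairs with different numbers 6 did, with r from −0.30 to 0.22. Whether the numbers pair samples by design cannot be told from this. With 1 library left out, values ran from 0.62 to 1.20 for RCA and 1.02 to 1.73 for the RBCS sum at 5 h of high against standard light. Against dark they ran from −0.75 to −0.58 for RCA and −1.30 to −0.93 for the RBCS sum in T2L, and for the RBCS sum from −0.37 to 0.072 in T2H and −0.33 to 0.36 in T5H. In the steps they ran from −0.11 to 0.019 (5 to 8 h, standard), −0.28 to 0.45 (2 to 5 h, high) and −1.48 to −0.77 (5 to 8 h, high) for the RBCS sum, and from −0.87 to −0.30 (2 to 5 h, high) and −1.14 to −0.59 (5 to 8 h, high) for RCA. Among the copies, signs changed against dark for RBCS1A (−0.37 to 0.032 in T2H, −0.35 to 0.39 in T5H), RBCS2B (−0.74 to 0.090 in T5H) and RBCS3B (−0.24 to 0.20 in T2H, −0.57 to 0.14 in T5H), and in the effect at 8 h less that at 2 h for RBCS1B (−0.54 to 0.035) and RBCS2B (−0.025 to 0.51). The mean high-minus-standard difference of the 6 shares and ratios kept direction and call in each of these. The difference at 8 h less that at 2 h was checked this way for 2 of them, after the data were seen: it ran from 1.05 to 1.39 for RCA to the RBCS sum and kept its call, and from −17.6 to −14.2 percentage points for the RBCS1A share, which passed without T2L replicate 1. With the replicate block their exact permutation p was 0.0312, the smallest that block allows, and 0.188.

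The background counts moved too. At 2 h 284 loci were higher and 239 lower, against 553 and 517 with DESeq2, 695 and 641 with no filter, 77 and 87 with the covariate and 87 and 76 with the contrasted groups alone. At 5 h 1431 were higher and 930 lower, against 1760 and 2121 with limma voom, 2291 and 2387 without T5H replicate 3, 549 and 298 without T5H replicate 1, and 483 and 235 with the contrasted groups alone. At 8 h 1529 were higher and 1496 lower, against 3353 and 3102 with the contrasted groups alone. For the effect at 8 h less that at 2 h, 995 were higher and 1008 lower, against 588 and 383 with the covariate.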
